A study of Mus musculus with 3 samples.

Results

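The genes described here are 9 sensors and editors of double-stranded RNA, with an adaptor and related antiviral RNA-binding genes, chosen by symbol from the 44788 genes of the count table. They are Ddx58 (also called Rigi), Ifih1, Dhx58, Mavs, Eif2ak2, Adar, Adarb1, Zc3hav1 and Ddx60. Each of the 9 had counts in every library and passed the filter on low counts, which left 15529 genes to test.

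Long or uncapped double-stranded RNA is a sign of viral infection. The RIG-I-like receptors, which are RNA helicases, bind it and activate Mavs, an adaptor on the outer membrane of mitochondria, and this leads to type I interferon. Interferon in turn raises many of the sensors through STAT and IRF transcription factors that bind the interferon-stimulated response element (ISRE) near their starts. The adenosine deaminase Adar changes adenosines in the cell's own double-stranded RNA to inosines, which keeps that RNA from being sensed.

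RNA was measured in primary chondrocytes, the cells of cartilage, from knee joints of C57BL/6 mice. The cKO group (2 libraries) had the genotype Col2a1-CreERT2;Kdm6bf/f, in which a tamoxifen-dependent recombinase is driven by the chondrocyte promoter Col2a1 and both alleles of the histone demethylase gene Kdm6b are floxed. The Control group (1 library) was Kdm6bf/f and lacked the recombinase. Cells of both groups were cultured with 10% serum and given 4-hydroxytamoxifen at 1 µM for 48 h, so the drug is shared, while an effect of the recombinase itself cannot be told apart from that of losing Kdm6b.

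The cKO libraries held 12577419 and 12636471 counts, and Control held 12489738. Kdm6b counts were 1049 and 948 in cKO and 1289 in Control, and the log2 difference of -0.39 ± 0.14 (SE) did not pass (adjusted p = 0.138 in edgeR). These counts include exons outside the floxed part and may include reads of the antisense gene Kdm6bos, so they check the labels only weakly. The cKO libraries stand apart in sex-linked RNA, with 2 counts of Xist in replicate 1 and 10081 in replicate 2, against 1 in Control, so the cKO libraries do not come from the same animal, and sex is not balanced between the groups. All 9 sensor and editor genes are autosomal. All 15 measured chondrocyte markers had counts, and their summed level was 18540 and 17110 CPM (read counts scaled to library size) in cKO and 31170 CPM in Control. Of the 15, 13 fell and 0 rose in edgeR, beside 1.9% lower and 3.01% higher of all genes tested. DESeq2 called 11 of them lower and limma-voom 14, and neither called one higher.

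Markers of leukocytes and endothelium, which a joint culture could hold, were mostly low. The summed level of fibroblast and synovium markers was above that of the chondrocyte markers in both cKO libraries and below it in Control. The chondrocyte sum in that comparison was mostly Col2a1. Of 22 leukocyte markers 12 had any count, and their summed level was 13.65 and 13.75 CPM in cKO and 8.46 CPM in Control. Adgre1 (listed as Emr1), Itgam, Tyrobp, Siglech and Cd3e were at 0 counts in all 3 libraries, and Ptprc had 1 and 1 counts in cKO and 0 in Control. Some macrophage-associated genes of the list had more counts. Csf1r had 33 and 28 counts in cKO and 8 in Control, and Cd68 had 59 and 57 in cKO and 32 in Control. Cd14 had 43 and 62 in cKO and 38 in Control, while Lyz2 had 21 and 18 in cKO and 19 in Control. Fcgr1, Aif1 and Cx3cr1 each had 0 and 1 in cKO and 0 in Control. Of the 4 leukocyte markers that could be tested 0 passed in edgeR, in DESeq2 or in limma-voom, while Csf1r and Cd68 had a positive difference, 3.71-fold and 1.78-fold, at an unadjusted p of 0.0052 and 0.043 in edgeR. Of 9 tested fibroblast and synovium markers 2 rose in edgeR, 2 in limma-voom and 0 in DESeq2, beside 3.01%, 2.99% and 1.45% of all genes tested. The list's summed level was 20340 and 18410 CPM in cKO and 20900 CPM in Control. The log2 differences of the 9 ran from -1.29 to 1.65 with a median of -0.02. Of these markers, 3 higher and 1 lower had an unadjusted p under 0.05 in edgeR, beside 2431 of all 15529 genes tested. Thy1 had 623 and 259 counts in cKO and 139 in Control (adjusted p = 0.0034 in edgeR), and Prg4 had 231.6 and 168.7 CPM in cKO and 135.4 CPM in Control (adjusted p = 0.0489 in edgeR). Of 8 endothelial markers Cdh5, Tie1 and Emcn were at 0 counts in all 3 libraries, the summed level was 30.75 and 28.44 CPM in cKO and 38.53 CPM in Control, and 0 of 3 tested passed in edgeR, in DESeq2 or in limma-voom. Vwf had 24 and 27 counts in cKO and 7 in Control (unadjusted p = 0.010 in edgeR). Erg had 343 and 332 in cKO and 468 in Control (unadjusted p = 0.0074 in edgeR). Most of the endothelial sum was Erg alone, which gave 27.54 and 25.94 of the cKO CPM and 37.72 of the Control CPM. The lower sum in cKO therefore reflects Erg and not the list. The log2 difference was -0.50 for Erg but 1.82 for Vwf and 1.17 for Tek. Tek had few counts, 11 and 3 in cKO against 3 in Control. The part of these marker lists in the results below was not tested.

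Promoter sequences are shown first, because 7 of the 9 genes were called higher in cKO in edgeR, beside 3.01% of all genes tested. Motifs that interferon-responsive genes often carry were looked for in the sequences, and the cause of the difference was not tested. The windows run from 250 bases before to 50 bases after an annotated start and come from RefSeq on GRCm38.p6. The table held windows for 8 of the 9 genes, with 3 starts for Adar, and Dhx58 was not matched. The ISRE core was searched as GAAA, any 2 bases and GAAA again, on both strands, so that it can also read TTTC, any 2 bases and TTTC. Matches stand in capitals in these windows of Ddx58 (chr4:40239776-40240075, minus strand), Ifih1 (chr2:62646206-62646505, minus strand), Eif2ak2 (chr17:78882523-78882822, minus strand) and Ddx60 (chr8:61927837-61928136, plus strand), each read 5′ to 3′ along the gene's strand.
Ddx58: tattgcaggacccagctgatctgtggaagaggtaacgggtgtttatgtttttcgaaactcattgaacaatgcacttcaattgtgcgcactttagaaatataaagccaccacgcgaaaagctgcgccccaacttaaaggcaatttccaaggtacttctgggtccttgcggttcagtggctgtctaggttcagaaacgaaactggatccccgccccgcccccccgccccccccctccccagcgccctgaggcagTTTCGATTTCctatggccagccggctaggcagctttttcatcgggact
Ifih1: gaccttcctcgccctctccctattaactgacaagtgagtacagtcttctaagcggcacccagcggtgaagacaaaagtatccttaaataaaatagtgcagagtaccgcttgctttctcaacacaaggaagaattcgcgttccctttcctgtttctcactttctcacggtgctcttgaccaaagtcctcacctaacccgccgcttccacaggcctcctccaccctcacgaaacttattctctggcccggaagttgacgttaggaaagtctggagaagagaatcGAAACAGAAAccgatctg
Eif2ak2: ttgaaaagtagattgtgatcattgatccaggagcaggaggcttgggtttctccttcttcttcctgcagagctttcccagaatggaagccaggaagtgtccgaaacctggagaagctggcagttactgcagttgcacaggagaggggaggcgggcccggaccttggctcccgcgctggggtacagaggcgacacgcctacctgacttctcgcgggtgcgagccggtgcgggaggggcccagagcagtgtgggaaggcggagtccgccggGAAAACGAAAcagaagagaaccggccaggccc
Ddx60: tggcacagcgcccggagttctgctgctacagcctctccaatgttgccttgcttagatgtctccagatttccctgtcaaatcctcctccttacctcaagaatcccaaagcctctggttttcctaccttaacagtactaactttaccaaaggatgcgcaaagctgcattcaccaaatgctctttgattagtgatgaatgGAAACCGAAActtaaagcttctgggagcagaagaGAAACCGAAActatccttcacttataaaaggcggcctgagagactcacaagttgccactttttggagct

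The core was present in 4 of the 8 genes with a window, against 3.99% of the 27025 genes in the promoter table (3.44% of 32851 windows). Ddx60 held it at 2 places, both read as GAAACCGAAA, whose first bases lie at -53 and -19 from the start. In the other 3 genes the match lay just inside the transcribed part, with its first base at 3 in Ddx58, 19 in Eif2ak2 and 33 in Ifih1. A stricter form, contained in the core, asks for a C as the first of the 2 bases. It was in Ifih1 and Ddx60, against 0.792% of all genes. Mavs, Adarb1, Zc3hav1 and the 3 Adar windows held no core match, which says only that these letters are not in these windows.

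For contrast, the window of Mavs (chr2:131233813-131234112, plus strand) and that of the third Adar start (chr3:89730468-89730767, plus strand) are given. In the Adar window the capitals mark the shorter form GAAANNGAA, which was searched only after the windows had been read and was in 9.76% of all genes. It is the core without its last letter and can overlap it.
Mavs: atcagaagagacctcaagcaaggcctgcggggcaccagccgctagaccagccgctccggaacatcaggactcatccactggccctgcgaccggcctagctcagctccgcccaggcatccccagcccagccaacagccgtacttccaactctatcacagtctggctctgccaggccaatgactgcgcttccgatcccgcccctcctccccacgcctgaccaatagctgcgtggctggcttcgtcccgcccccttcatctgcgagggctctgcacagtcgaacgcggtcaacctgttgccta
Adar: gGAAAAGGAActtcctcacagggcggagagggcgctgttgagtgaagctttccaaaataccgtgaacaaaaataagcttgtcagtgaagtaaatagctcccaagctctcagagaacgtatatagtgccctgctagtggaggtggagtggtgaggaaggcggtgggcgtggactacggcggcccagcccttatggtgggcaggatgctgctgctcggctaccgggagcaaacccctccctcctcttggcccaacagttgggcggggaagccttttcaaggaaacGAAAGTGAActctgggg

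The shorter form lay at -249 and 34 from that Adar start. The STAT site GAS, searched as TTCNNNGAA, which reads the same on both strands, was in Eif2ak2 at -178 and in the third Adar window at 23, against 9.55% of all genes. A match is a run of letters and was not tested for binding.

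**Figure D1:**
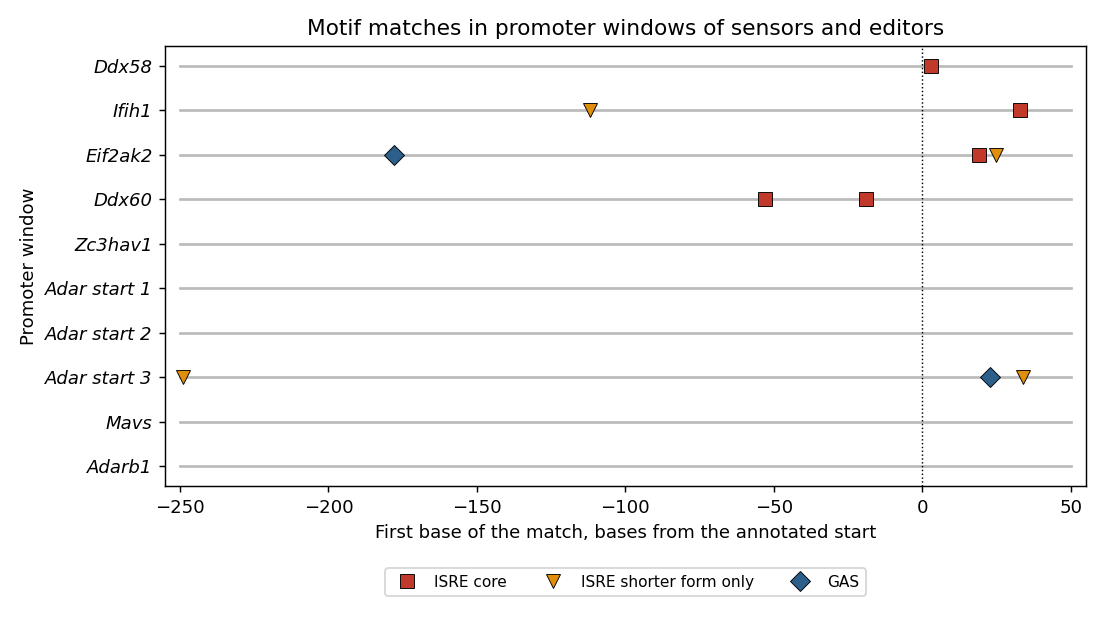
Each grey line is 1 promoter window of 300 bases, with position relative to the annotated start on the x axis. Red squares mark the ISRE core, orange triangles the shorter form where it is not part of a core match and blue diamonds the GAS motif. The triangle of Eif2ak2 at 25 overlaps its core match at 19. Core matches lie within 53 bases of the start in Ddx58, Ifih1, Eif2ak2 and Ddx60, and the windows of Zc3hav1, Mavs and Adarb1 hold no match to any of these motifs.

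Setting cKO against Control asks how the transcripts of chondrocytes differ once the recombinase that can delete Kdm6b is present and switched on. Of the 9 genes, 7 rose in cKO and 0 fell, while 3.01% of all genes tested were called higher and 1.9% lower (edgeR's quasi-likelihood test, adjusted p under 0.05). The 7 were the 3 RIG-I-like receptors Ddx58, Ifih1 and Dhx58, the kinase gene Eif2ak2, the editor Adar, the antiviral protein gene Zc3hav1 and the helicase gene Ddx60. The other two, Mavs and the second editor gene Adarb1, did not pass. DESeq2 and limma-voom also called 7 of the 9 higher and 0 lower, against 1.45% higher and 0.522% lower of all genes in DESeq2 and 2.99% and 2.32% in limma-voom. The median log2 difference of the 9 was 2.46, beside a median of -0.0022 over all genes tested. These are bulk libraries, so more RNA per cell and more cells of a kind that expresses a gene cannot be told apart.

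All 3 receptors rose, Ddx58 by the smallest fold of the 3 and from the highest Control level per exon length. Ddx58 (chromosome 4, 40203773 to 40239828, minus strand, GRCm38) encodes RIG-I, which binds RNA with a 5′ triphosphate. It had 3922 and 3916 counts in cKO and 698 in Control, which is 314.9 and 306.0 CPM against 56.3 CPM. The cKO libraries lay close together and far above Control, a log2 difference of 2.46 ± 0.15 (SE, adjusted p = 9.05e-11 in edgeR), or 5.52-fold.

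Ifih1 (chromosome 2, 62595798 to 62646255, minus strand, GRCm38) encodes MDA5, which assembles along long double-stranded RNA. It had 1374 and 1408 counts in cKO and 102 in Control, or 110.3 and 110.0 CPM against 8.22 CPM. The cKO libraries differed by only 0.0040 on the log2 scale, and the rise was 3.74 ± 0.18 (SE, adjusted p = 1.06e-12 in edgeR), or 13.4-fold.

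Dhx58 (chromosome 11, 100694884 to 100704271, minus strand, GRCm38) encodes LGP2, which lacks the signalling domains of the other two receptors and modulates them. Its counts were 1231 and 1096 in cKO and 66 in Control, or 98.8 and 85.6 CPM against 5.32 CPM. The rise was 4.11 ± 0.20 on the log2 scale (SE, adjusted p = 1.12e-12 in edgeR), or 17.3-fold. The exons of Dhx58 overlap the antisense gene Dhx58os, and the use of strand in counting is not given in the sources used here, so reads of the pair cannot be told apart.

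The adaptor downstream of Ddx58 and Ifih1 did not pass the test. Mavs (chromosome 2, 131234063 to 131248025, plus strand, GRCm38) had 550 and 572 counts in cKO and 540 in Control, or 44.2 and 44.7 CPM against 43.5 CPM. All 3 libraries lay close together, and the log2 difference was 0.03 ± 0.15 (SE, adjusted p = 0.960 in edgeR). The ratio of normalised counts was 1.02, with an exact 95% binomial interval of 0.92 to 1.13 that covers counting error only.

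Eif2ak2 (chromosome 17, 78852564 to 78882573, minus strand, GRCm38) encodes PKR, a kinase that is activated by double-stranded RNA and stops translation by phosphorylating eIF2. It had 2188 and 2002 counts in cKO and 373 in Control, or 175.7 and 156.4 CPM against 30.1 CPM. Both cKO libraries lay far above Control, with a log2 difference of 2.46 ± 0.16 (SE, adjusted p = 1.77e-10 in edgeR), or 5.52-fold. The annotation places Gm26637 and n-R5s29 on the opposite strand over its exons, so a share of its counts is uncertain.

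Of the RNA editor genes, Adar rose and Adarb1 did not pass. Adar (chromosome 3, 89715022 to 89753446, plus strand, GRCm38) encodes ADAR1, which is made in a long form from an interferon-responsive start and a short form from other starts, and gene-level counts add these up. It had 2762 and 2794 counts in cKO and 683 in Control, or 221.8 and 218.3 CPM against 55.1 CPM. The cKO libraries differed from each other by 0.02 on the log2 scale and lay above Control by 2.0 ± 0.15 (SE, adjusted p = 2.13e-09 in edgeR), or 4.00-fold. The neighbouring gene Chrnb2, which overlaps it on the opposite strand, had only 9 and 7 counts in cKO and 7 in Control.

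Adarb1 (chromosome 10, 77290726 to 77418270, minus strand, GRCm38) encodes ADAR2, best known for editing glutamate receptor transcripts in the brain. It had 103 and 83 counts in cKO and 85 in Control, or 8.27 and 6.48 CPM against 6.85 CPM. Control lay between the cKO libraries, and the log2 difference was 0.11 ± 0.29 (SE, adjusted p = 0.923 in edgeR). At this depth the exact 95% binomial interval of the ratio was 0.827 to 1.41 around 1.08, which leaves out a change as large as that of Adar and covers counting error only.

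Zc3hav1 and Ddx60 act beside the receptors. Zc3hav1 (chromosome 6, 38305286 to 38354603, minus strand, GRCm38) encodes ZAP, which binds CpG-rich viral RNA and directs it to decay. It had 2830 and 2741 counts in cKO and 1097 in Control, or 227.2 and 214.2 CPM against 88.4 CPM. Its rise, 1.32 ± 0.14 on the log2 scale (SE, adjusted p = 1.14e-06 in edgeR) or 2.50-fold, was the smallest of the 7.

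Ddx60 (chromosome 8, 61928087 to 62038244, plus strand, GRCm38) encodes a large helicase that has been linked to RIG-I signalling and antiviral defence. It had 411 and 368 counts in cKO and 7 in Control, or 33.0 and 28.8 CPM against 0.564 CPM. Both cKO libraries were far above a Control level near the limit of detection, where 3 counts are 0.242 CPM. The rise was 5.75 ± 0.33 on the log2 scale (SE, adjusted p = 2.70e-11 in edgeR), or 53.8-fold. Because it stands on 7 Control counts the fold is imprecise, and the ratio of normalised counts, 54.7, has an exact 95% binomial interval of 26.4 to 136.

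**Figure D2:**
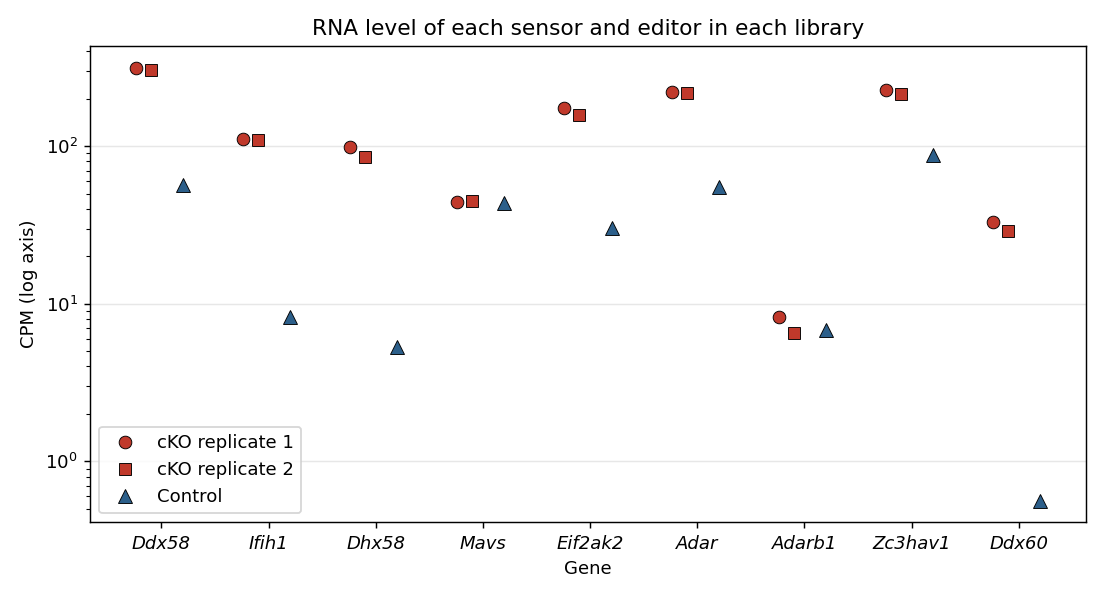
CPM on a log axis for each gene, with the cKO libraries as red circles and squares and Control as blue triangles, 1 point per library. For 7 genes both cKO points lie far above Control, as for Ddx60 with 33.0 and 28.8 CPM against 0.564 CPM, while for Mavs and Adarb1 the 3 points lie close together.

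The cKO libraries lay close together for 8 of the 9 genes. The log2 difference of cKO replicate 1 from cKO replicate 2 ran from -0.02 for Mavs to 0.21 for Dhx58 over 8 of the genes and was 0.35 for Adarb1, the one with the fewest cKO counts. For comparison, its SD over the 11339 genes at a mean of at least 5 CPM was 0.331. Both cKO libraries lay above Control for 8 of the 9 genes, against 36.6% of all genes tested, and Adarb1 was the exception. The mean of cKO was at least 2 times Control for 7 of the 9, against 4.12% of all genes tested, and this count was also 7 with either cKO library alone.

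In rank by log2 difference among the 15529 genes tested, Ddx60 stood at 47, Dhx58 at 87 and Ifih1 at 97. Eif2ak2 and Ddx58 followed side by side at 164 and 165, Adar at 220 and Zc3hav1 at 417. Adarb1 and Mavs lay at 5564 and 7108, in the middle of the distribution. The order of the 7 was the same in both cKO libraries except for Eif2ak2 and Ddx58, at 2.55 and 2.49 over Control in replicate 1 and 2.38 and 2.44 in replicate 2.

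**Figure D3:**
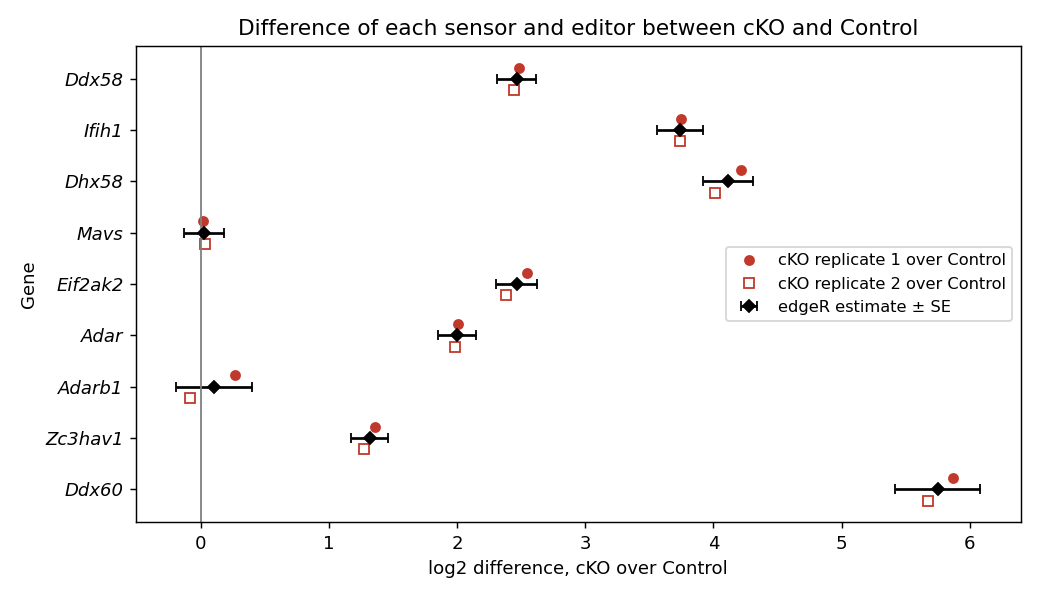
Black diamonds give the edgeR log2 difference of cKO over Control with its SE, and red symbols give each cKO library over the single Control library. The estimates run from 1.32 for Zc3hav1 to 5.75 for Ddx60 among genes that passed, and those of Mavs and Adarb1, at 0.03 and 0.11, lie within 1 SE of 0.

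Every test leans on a spread shared between genes, since the pair of cKO libraries leaves 1 residual degree of freedom and Control is single. With no filter on low counts the estimated prior degrees of freedom dropped to 2.03 and 0 of the 9 passed in edgeR, with adjusted p between 0.116 and 0.249 for the 7, all 7 of which had an unadjusted p under 0.05. With prior degrees of freedom set to 3, Zc3hav1 alone of the 7 was lost (adjusted p = 0.0819 in edgeR).

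Counts per exon length allow levels to be set between genes. In cKO the highest level per length was that of Ddx58, at 44.7 and 43.4 CPM per kb of exon, against 7.98 in Control. Zc3hav1 and Eif2ak2 came next in cKO, with ranges that overlapped, at 34.9 and 32.9 and at 34.4 and 30.6 CPM per kb. Dhx58 and Adar also overlapped, at 30.2 and 26.2 and at 27.3 and 26.9 CPM per kb.

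Ifih1 and Mavs lay together in cKO, at 13.5 and 13.5 CPM per kb for Ifih1 and 13.2 and 13.4 for Mavs. Ddx60, at 3.80 and 3.31, and Adarb1, at 0.734 and 0.575 CPM per kb, were lowest. In Control the order was another one. Zc3hav1 and Mavs were highest there, at 13.6 and 13.0 CPM per kb, and Ifih1 at 1.01, Adarb1 at 0.608 and Ddx60 at 0.0650 were lowest. The lengths join all annotated exons of a gene, so these levels are lower where long exons are little used.

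The balance between genes of the pathway differed accordingly. Per exon length, the ratio of Ddx58 to its adaptor Mavs was 3.38 and 3.25 in cKO and 0.613 in Control, and that of Ifih1 to Mavs was 1.02 and 1.01 in cKO and 0.0774 in Control. The ratio of Ddx58 to Ifih1 was 3.31 and 3.22 in cKO and 7.92 in Control, while that of Dhx58 to Ifih1 was 2.24 and 1.94 in cKO and 1.61 in Control. Adar stood at 37.2 and 46.7 times Adarb1 in cKO and 11.2 times in Control. These ratios describe RNA levels in 3 libraries and were not tested.

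**Figure D4:**
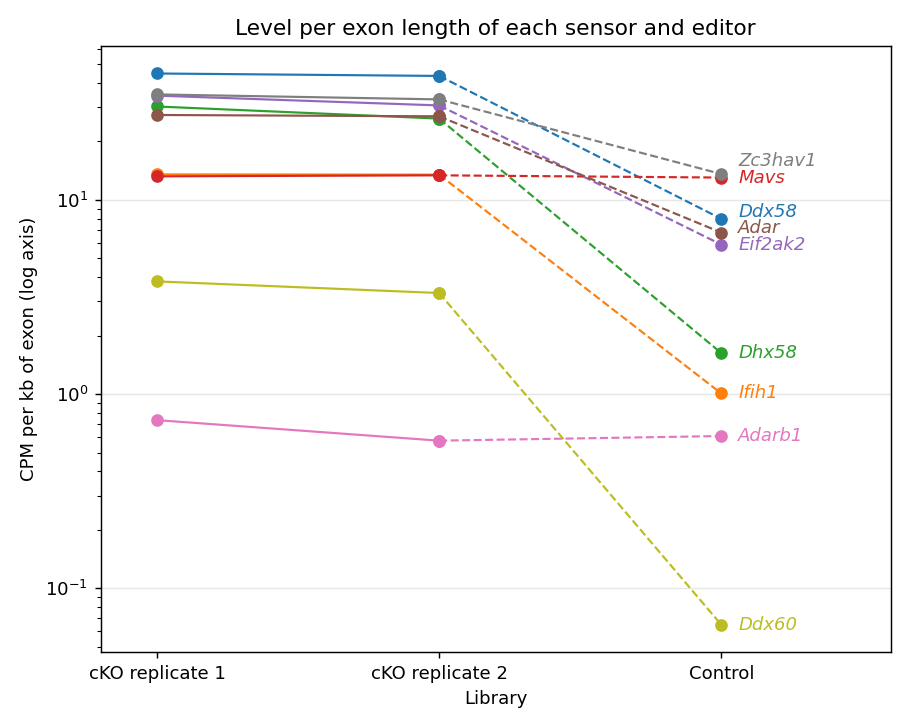
CPM per kb of joined exons on a log axis, with 1 line per gene across cKO replicate 1, cKO replicate 2 and Control; the dashed part leads to Control, and the points of Ifih1 in cKO lie under those of Mavs. Ddx58 is highest in both cKO libraries, at 44.7 and 43.4, whereas Zc3hav1 and Mavs are highest in Control, at 13.6 and 13.0.

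Genes around the sensors mostly did not pass. Over 6 lists of pathway genes that leave out the 9, 6 of 105 tested genes rose and 0 fell, beside 3.01% and 1.9% of all genes tested, and 14 had a positive and 7 a negative difference with an unadjusted p under 0.05. DESeq2 called 4 higher and limma-voom 6, and neither called one lower. The median log2 difference over the 105 was 0.02.

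Among 25 regulators of the RIG-I-like receptors, 3 rose (median 0.09). Trim25, a ubiquitin ligase that acts on RIG-I in human cells and is also a cofactor of ZAP, had 185.9 and 166.9 CPM in cKO and 46.5 CPM in Control, a log2 difference of 1.92 ± 0.15 (SE, adjusted p = 5.98e-09 in edgeR). Trim14, which binds MAVS, had 56 and 58 counts in cKO and 5 in Control. Its rise of 3.45 ± 0.58 (SE, adjusted p = 4.81e-04 in edgeR) is imprecise because of the low Control count. Otud5, an X-linked gene for a deubiquitinase, had 82.1 and 80.0 CPM in cKO and 54.3 CPM in Control and rose by 0.58 ± 0.15, but it did not pass in DESeq2 (adjusted p = 0.289).

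Downstream of Mavs, 1 of 21 tested signalling genes rose (median 0.18). This was Irf7, the transcription factor that amplifies interferon production, with 181.8 and 194.2 CPM in cKO and 4.84 CPM in Control, or 5.28 ± 0.19 on the log2 scale (SE, adjusted p = 2.23e-14 in edgeR). Its relative Irf3, which cells make without stimulation, and the kinase Tbk1 that activates both were looked at for their role, after their values were known. Irf3 had 31.0 and 35.5 CPM in cKO and 33.8 CPM in Control, and Tbk1 had 32.8 and 30.8 CPM in cKO and 25.2 CPM in Control, and neither passed (adjusted p = 0.977 and 0.379 in edgeR).

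Interferon RNA itself was at the limit of detection. Of 19 interferon genes with a row in the table, 3 had any count and 0 passed the filter on low counts. Ifnb1, the first interferon made after RNA sensing, had 1 and 1 counts in cKO and 0 in Control. Ifna4 had 2 and 0 in cKO and 0 in Control, and Ifnz had 2 and 1 in cKO and 1 in Control. Each of these library values is under 3 counts, which is between 0.234 and 0.242 CPM here, so no difference in interferon RNA was detectable at this depth.

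Among 18 genes around eIF2, the target of PKR, 0 passed in edgeR, DESeq2 or limma-voom (median -0.10). Of the 18, 1 higher and 4 lower had an unadjusted p under 0.05 in edgeR, beside 2431 of all 15529 genes tested. The smallest p was that of Eif2ak3, the PERK kinase of the endoplasmic reticulum, with 54.4 and 57.8 CPM in cKO and 75.2 CPM in Control (log2 -0.42 ± 0.14 SE, adjusted p = 0.108 in edgeR).

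Of 17 tested deaminases and double-stranded RNA-binding proteins, 1 rose (median 0.03). Zbp1, which shares the Z-RNA binding domain of the long ADAR1 form, had 404 and 339 counts in cKO and 4 in Control, a rise of 6.47 ± 0.38 on the log2 scale (SE, adjusted p = 2.93e-11 in edgeR), imprecise because of the low Control count. Of 24 partners of ZAP and RNA decay factors, 1 rose (median 0.01). N4bp1, a ribonuclease known from human cells to degrade viral RNA, had 134.3 and 143.4 CPM in cKO and 92.8 CPM in Control, a rise of 0.58 ± 0.14 (SE, adjusted p = 0.0139 in edgeR), but it did not pass in DESeq2 (adjusted p = 0.133).

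Most other helicases of the broad family of Ddx58, Dhx58 and Ddx60 did not pass, as held for most genes tested. Of 49 other tested genes named Ddx or Dhx, 1 rose and 0 fell in edgeR, beside 3.01% and 1.9% of all genes tested. Of the 49, 3 higher and 1 lower had an unadjusted p under 0.05 in edgeR, beside 2431 of all 15529 genes tested. The median of the 49 was 0.07. Ddx24, a DEAD-box helicase, had 192.1 and 205.6 CPM in cKO and 98.7 CPM in Control, a rise of 1.01 ± 0.14 (SE, adjusted p = 4.60e-05 in edgeR). DESeq2 also called 1 higher and 0 lower, while limma-voom called 1 lower, the Y-linked Ddx3y, which had 680 and 0 counts in cKO and 732 in Control.

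**Figure D5:**
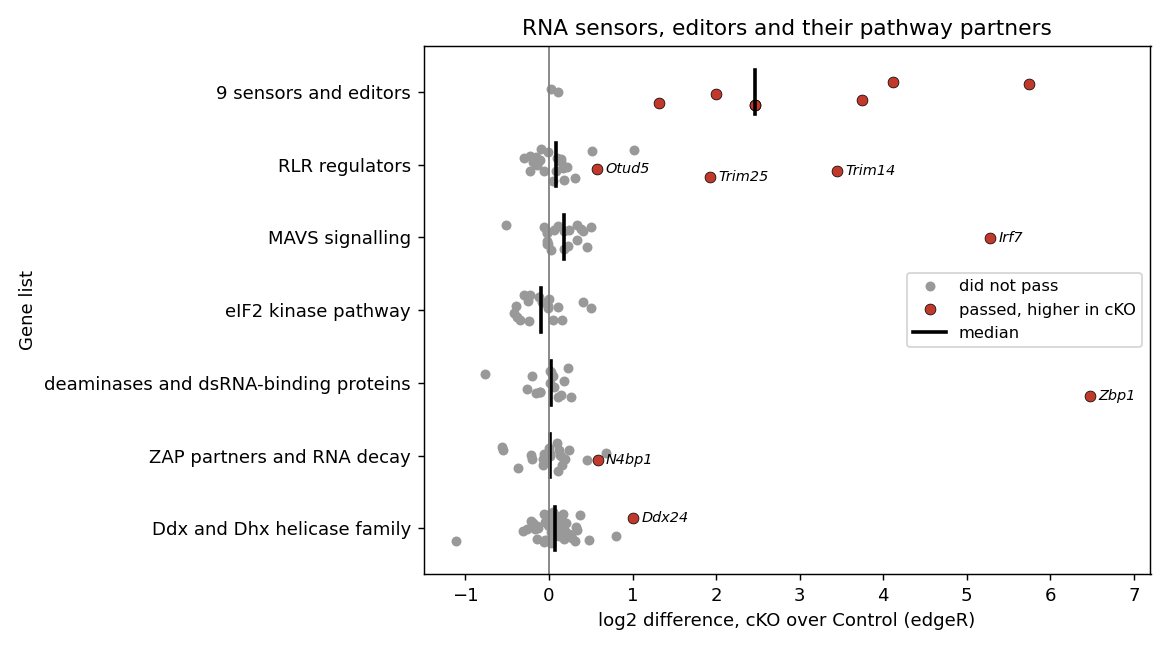
Each point is 1 tested gene, placed by its edgeR log2 difference of cKO over Control, with genes that passed in red and list medians as black bars. The 9 sensors and editors have a median of 2.46, while the medians of the other lists lie between -0.10 and 0.18, and the 7 red genes outside the 9 are named.

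The ISRE core was also counted in promoters of these partner genes. It was in 0 of the 4 pathway genes that rose and had a window and in 5 of 78 that did not pass. Among the sensor and editor genes it was in 4 of 6 that rose and had a window and in 0 of 2 that did not pass. The share over all genes in the promoter table was 3.99%, so 0 of 4 and 0 of 2 say little. These are counts of letters and were not tested.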

How the data were processed

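RNA depleted of ribosomal RNA was sequenced on the Ion Proton platform, per the labels' protocols. The authors deposited whole-number counts of reads for each gene symbol. The aligner, counter, annotation and strand setting behind them are not given in the sources used. The submitters' processing notes list GRCm38 and GRCh37 with no role.

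Counts were tested with edgeR 4.0.16 (R 4.3.3), using filterByExpr, TMM size factors and quasi-likelihood F tests, with p adjusted by the Benjamini-Hochberg method over all 15529 genes tested, at a threshold of 0.05. The non-legacy form of the fit, which is not the default of this edgeR version, was taken after the calls of 8 forms of it (legacy or not, robust or not, library sizes before or after the filter) had been seen, because it matches an earlier processing of these data. The SE is the log2 difference divided by the square root of F. CPM values use library sizes scaled by TMM. The estimated prior degrees of freedom were 19.9. The cKO columns differed beyond counting noise (chi-square 9.06 per gene over 16293 genes) and entered as 2 libraries. No label says how many animals or cultures each came from. Their Xist counts of 2 and 10081 show that they are not 1 animal's RNA, so the spread between them includes a difference between animals, sex among it, while none could be measured within Control. Gene positions and exon lengths are from GENCODE M21 on GRCm38, and promoters from RefSeq on GRCm38.p6.

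The sensor and editor genes and the pathway lists were chosen with earlier results of these data known. Named pathway genes are up to 4 per list that passed with the smallest p, or the 1 with the smallest p where none passed, and any interferon gene with a count. The alternatives were other size factors, DESeq2 1.42.0, limma-voom (limma 3.58.1), no filter on low counts, prior degrees of freedom of 3, and each cKO library alone. The procedure was tested on simulated data. The simulated libraries held no difference in sex, so they do not show how the calls fare under one.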

Additional observations from a re-analysis of the deposited data

How the results depend on the processing

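No paired analysis was possible because the single Control library carries no replicate number that both cKO libraries could share. The count of 7 sensor and editor genes higher in cKO was 7 with RLE size factors, with library totals, in DESeq2 and in limma-voom, and 6 with prior degrees of freedom of 3, and 0 were lower in any of these. With no filter on low counts it was 0, as were the counts over all genes in both directions (against 467 higher and 295 lower), over the pathway lists and over the helicases. The fit on 24051 genes had an estimated 2.03 prior degrees of freedom there, and 1829 of them had an unadjusted p under 0.05. With prior degrees of freedom of 3, 83 genes were higher and 4 lower, 3 pathway genes were higher and 0 helicases were. Of the chondrocyte markers, Matn1 alone was called lower then (adjusted p = 0.0313 in edgeR). Over all genes, DESeq2 called 225 higher and 81 lower and library totals gave 227 and 89; the cause was not tested. The other 7 forms of the edgeR fit, compared after seeing the data, called between 687 and 796 genes, against 762 here; the default legacy form called 484 higher and 312 lower, and each form called 7 sensor and editor genes higher and 0 lower. In limma-voom 1 helicase gene was lower. Log2 differences of the 7 that rose moved by at most 0.08 between the alternatives that use all libraries. Leaving out either cKO library kept the count of genes at least 2-fold higher between 7 and 7, with no test possible, and the calls by edgeR could not be fitted then; Adarb1 ran from -0.08 to 0.27 on the log2 scale, so its sign rests on which library is kept. With the stricter promoter motif 2 genes held it and with the shorter one 5. Differences under about 3 counts, as for the interferon genes, cannot be seen at this depth.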
